A study of Mus musculus with 30 samples.

Results

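The nuclear genes for subunits of the oxidative phosphorylation complexes were followed through an RNA-seq study of Smad4 loss and cytokine treatment in mouse colon cells. Members were chosen by symbol alone (Nduf a, b, c, s and v genes, Sdha to Sdhd, Uqcr genes, Cox4 to Cox8 genes and Atp5 genes), which gave 79 of the 13456 genes listed in any of the 7 deposited tables. By symbol, 36 of these were placed in complex I, 4 in complex II, 8 in complex III, 14 in complex IV and 17 in complex V. Placing by symbol does not make every gene a subunit of that complex, and the 17 include Atp5s and Atp5sl. The tables listed 76 members for colon epithelium, 77 or 78 for colonocytes and 77 for colonoids, and every listed member had a mean of at least 1 CPM (reads scaled to library size) and was tested. No mitochondrially encoded subunit was listed in any table, so the values describe the nuclear-encoded part of each complex.

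The study compared colon epithelium of C57BL/6J mice, cultured colonocytes and colonoids in 10 groups of 3 libraries. Colon epithelium came from Smad4+ control mice and from Smad4ΔLrig1 mice, a name that marks deletion of Smad4 from cells that express Lrig1, a marker of intestinal stem and progenitor cells. The colonocytes, labelled IMCfl/fl Smad4+, were untreated or received TNF, TGFB1 with BMP2, or all 3 factors at doses that the labels do not give, and all of them are labelled Smad4+. Colonoids, cultured epithelial structures grown from colon, came from lines 42, 43 and 46, whose strain and genotype the labels do not give. Each line received vehicle, 100 ng/mL TNF, 3 ng/mL TGFB1 with 10 ng/mL BMP2, or all 3 factors at those doses. Age, sex and treatment time are not in the labels.

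Complexes I to IV pass electrons from NADH and succinate to oxygen, complexes I, III and IV pump protons across the inner mitochondrial membrane, and complex V, the ATP synthase, uses that gradient to make ATP. Mature cells at the surface of the colon oxidise butyrate from the lumen and are known for high mitochondrial activity. Smad4 is the shared partner of the receptor-activated Smad proteins that carry TGF-beta and BMP signals to the nucleus, and TNF is an inflammatory cytokine that signals mainly through NF-kappaB.

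Start-site sequences of the members are shown because many of these genes share short letter patterns that are known to bind the nuclear respiratory factor NRF1, ETS family factors such as GABP, or YY1. RefSeq windows of 300 bases on GRCm38.p6, from 250 bases before to 50 after the start, were matched by symbol for 63 of the 79 members (58 with 1 window and 5 with 2) and were searched on both strands. The consensus core of NRF1, 10 letters long with 1 free position, was found in 16 members (25.4%), against 5.14% of other genes with a window and 10.8% of the other genes listed in the tables. The ETS letters CCGGAAG were also in 16 members (25.4%), against 9.89% and 19.0%. The YY1 letters AANATGGC were in 16 members (25.4%), of which 12 were complex I genes, against 6.92% and 9.54%. At least 1 of these 3 patterns was present in 41 of 63 members (65.1%), against 19.3% of other genes and 33.7% of other listed genes. The letters TCAAGGTCA of the estrogen-related receptor ESRRA were in 2 members (3.17%, against 0.460% and 0.298%), and the palindrome GTCTAGAC that Smad proteins can bind was in 0 (against 0.248% and 0.298%). A match is a description of the letters and not a bound site. Windows with none of the 5 patterns included those of members that fell in colon and in colonoids, such as Cox7c, Ndufa13 and Uqcr10. The stretches below lie upstream of both the RefSeq start and the gene body annotated by GENCODE M21 on GRCm38, and capitals mark matched letters on either strand. Outside the stretches shown, the window of Cox6a1 also matched the ETS letters and that of Atp5g3 the NRF1 letters. Cox6a1 (chr5:115348982-115349208, minus strand) is shown for its pair of NRF1 matches, Uqcr11 (chr10:80406831-80407071, minus strand) for an ETS match beside the largest fall of complex III in colon, Atp5g3 (chr2:73911327-73911576, minus strand) for an ESRRA match, and Cox7a1 (chr7:30183921-30184143, plus strand) because it was the member that rose in colonoids and none of the 5 patterns was found in its window.
Cox6a1: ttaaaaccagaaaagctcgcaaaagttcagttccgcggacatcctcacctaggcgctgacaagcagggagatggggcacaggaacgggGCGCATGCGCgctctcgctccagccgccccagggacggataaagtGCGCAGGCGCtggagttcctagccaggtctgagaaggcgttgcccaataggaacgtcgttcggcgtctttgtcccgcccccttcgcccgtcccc
Uqcr11: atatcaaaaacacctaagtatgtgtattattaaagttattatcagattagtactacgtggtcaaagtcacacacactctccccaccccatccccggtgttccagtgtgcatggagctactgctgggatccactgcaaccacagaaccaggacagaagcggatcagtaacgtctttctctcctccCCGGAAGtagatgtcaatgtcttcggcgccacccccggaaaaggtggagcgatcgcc
Atp5g3: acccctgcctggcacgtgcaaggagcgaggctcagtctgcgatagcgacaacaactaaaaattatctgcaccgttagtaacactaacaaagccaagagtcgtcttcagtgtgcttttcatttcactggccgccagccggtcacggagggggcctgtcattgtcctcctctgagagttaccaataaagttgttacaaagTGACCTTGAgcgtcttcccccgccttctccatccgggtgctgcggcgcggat
Cox7a1: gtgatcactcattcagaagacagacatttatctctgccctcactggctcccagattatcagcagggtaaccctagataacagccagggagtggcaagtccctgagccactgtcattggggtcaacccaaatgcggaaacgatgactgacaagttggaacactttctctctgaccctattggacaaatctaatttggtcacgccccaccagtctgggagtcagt

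The deposited values are CPM scaled to an effective library size in each table, and changes were tested by limma on log2(CPM + 1), which understates the change of the lowest genes. Total reads over the listed genes were 23173869 to 28629452 in colon epithelium, 21629011 to 42873250 in colonocytes and 42232242 to 61720211 in colonoids. Replicate 3 of every colonocyte group was shallower than the others, at 21629011 to 25213948 reads. As a check of the genotype, Smad4 reads came to 132, 148 and 152 CPM in control epithelium and to 47.8, 59.2 and 46.1 CPM after the deletion, a log2 change of -1.49 (SE 0.12, limma, Benjamini-Hochberg adjusted p = 7.01e-05). The colonocyte label was not borne out by its markers: 0 of 6 absorptive and 0 of 6 goblet genes were listed, Epcam and Vil1 were not listed, and the listed keratin and cadherin genes summed to 27.3 to 49.9 CPM. In addition, 6 muscle and stroma genes summed to 5240 to 6595 CPM in the same libraries, so these cells are called the cells labelled colonocytes. Colon epithelium and colonoids listed all 6 markers of each epithelial list.

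At baseline the subunit genes were expressed far above the typical gene in each system. Per kilobase of exon, and within each table, the median level in control colon epithelium was 110 CPM per kb for complex I, 170 for complex II, 307 for complex III, 363 for complex IV and 158 for complex V, against 7.43 for all listed genes. In vehicle colonoids the medians for complexes I to V were 66.6, 98.5, 179, 191 and 138 CPM per kb, against 8.14 for all listed genes. In the untreated cells labelled colonocytes they were 26.6, 43, 44.9, 68.3 and 57.7, against 7.70. The tables were normalised separately, so the order between systems is a description. The length used is the union of all annotated exons of a gene, so levels and shares per kb depend on the annotation as well as on the reads. Within control colon epithelium the levels ran in complex I from Ndufb2 (5628 bp) at 11.8 to Ndufa1 (419 bp) at 292 CPM per kb, and in complex IV from Cox7a1 at 51.4 to Cox8a at 866. In complex V they ran from Atp5s, a coupling factor rather than a core subunit, at 6.23 to Atp5a1, the alpha subunit of the catalytic head, at 790.

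In colon epithelium without Smad4, genes of all 5 complexes fell. The summed level of the 76 listed members was 25924, 29399 and 28987 CPM in the control libraries and 16905, 17254 and 19934 CPM in the knockout libraries. Every knockout library was below every control library, and the knockout mean was 64.2% of the control mean. By complex the knockout mean was 61.7% of control for complex I, 69.8% for II, 62.9% for III, 63.5% for IV and 65.3% for V, and the groups did not overlap in any of the 5. In limma with Benjamini-Hochberg adjustment over all genes, 65 of 76 members fell and 0 rose, beside 19.9% of all 11607 tested genes that fell and 19.8% that rose. The groups did not overlap in 67 members that were lower and 1 that was higher, beside 25.2% and 25.0% of all tested genes. The members' median change was -0.75 on the log2 scale, against 0.00 for all genes. In these bulk libraries fewer cells of a type and less RNA per cell cannot be told apart.

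**Figure D1:**
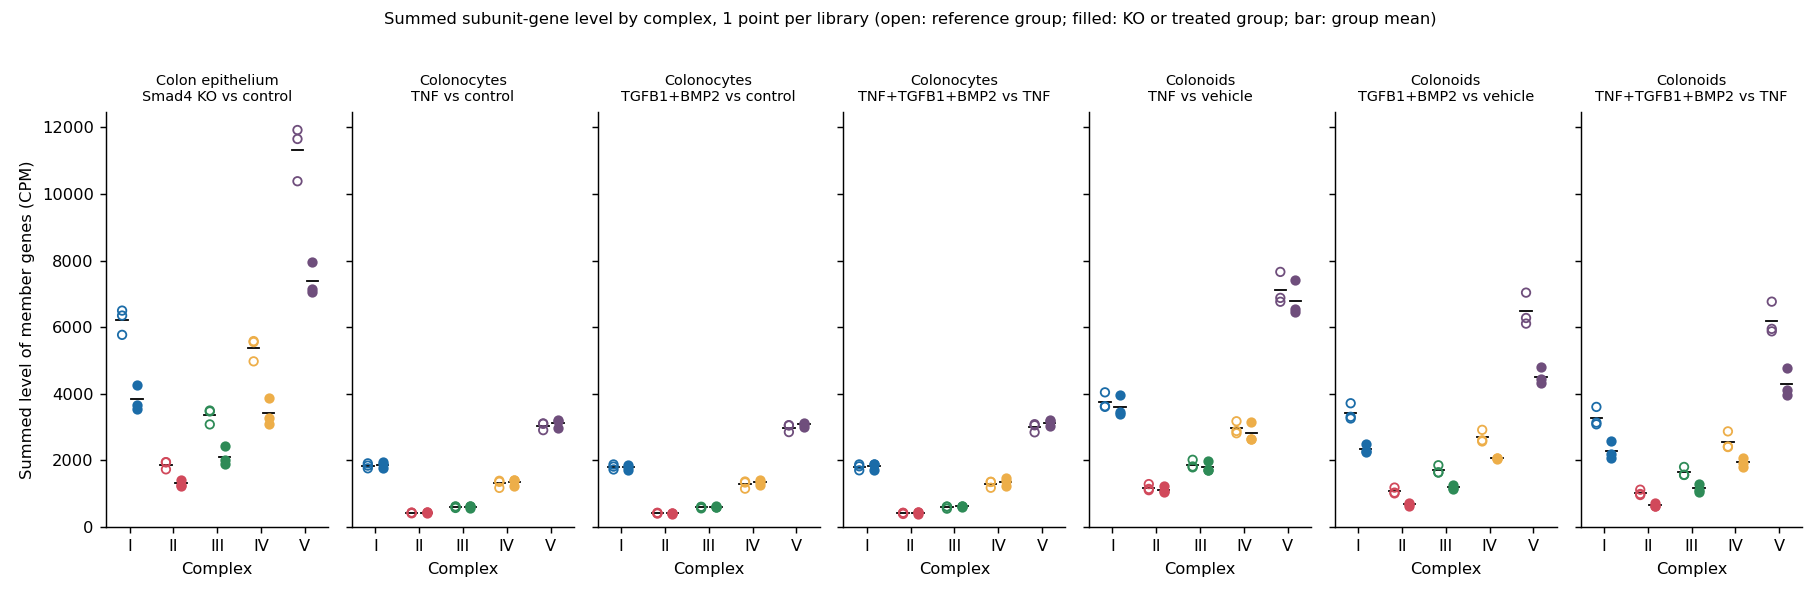
Summed CPM of the members of each complex in every library, for each of the 7 comparisons, with each point 1 library. The 3 knockout colon libraries and the 6 colonoid libraries with TGFB1 and BMP2 sit below all of their reference libraries in every complex, while the other groups overlap.

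Complex I, the NADH dehydrogenase and entry point for most electrons, had 29 of 35 listed members lower, with a median change of -0.83. Ndufa13, an accessory subunit also known as Grim19 (chromosome 8, 69894180 to 69902558, minus strand, overlapping Tssk6 on the other strand), was at 192, 202 and 161 CPM in control and 76.3, 52.7 and 66.6 CPM in knockout epithelium. It had the largest fall of the complex, by 1.50 on the log2 scale (SE 0.14, limma adjusted p = 0.000148). Among core subunits, looked at after their values were seen, some fell and others did not pass. Ndufv1, which holds the flavin that accepts electrons from NADH, was at 258, 287 and 245 CPM in control and 133, 116 and 132 CPM in knockout (fell by 1.04, SE 0.10, limma adjusted p = 0.000169). Its partner Ndufv2 was at 283, 342 and 379 CPM in control and 255, 318 and 357 CPM in knockout, groups that overlap (log2 change -0.11, SE 0.15, limma adjusted p = 0.562). Ndufs7, an iron-sulfur subunit next to the quinone site, fell by 1.16 (SE 0.11), while Ndufs1, the largest iron-sulfur subunit, had a change of -0.18 (SE 0.11, limma adjusted p = 0.228). Ndufa12 was the 1 member whose knockout libraries, at 154, 155 and 161 CPM, were all above the controls, at 146, 150 and 145 CPM, and it did not pass the test (0.09, SE 0.09, limma adjusted p = 0.421). Ndufa4, named as a complex I gene but now known as a complex IV subunit, was at 148, 189 and 215 CPM in control and 119, 138 and 183 CPM in knockout and did not pass (limma adjusted p = 0.152).

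Complex II, the succinate dehydrogenase shared with the tricarboxylic acid cycle, fell in all 4 subunits, with a median change of -0.59. Sdhb, the iron-sulfur subunit (chromosome 4, 140961203 to 140979193, plus strand), was at 349, 412 and 399 CPM in control and 212, 243 and 266 CPM in knockout epithelium. The groups did not overlap, and the change was -0.69 on the log2 scale (SE 0.11, limma adjusted p = 0.00152). Sdha, the flavoprotein that oxidises succinate, was at 646, 711 and 715 CPM in control and 531, 541 and 551 CPM in knockout. Its change of -0.35 (SE 0.09, limma adjusted p = 0.0146) was the smallest of the 4, and the call was lost without knockout replicate 2 (adjusted p = 0.0573), control replicate 2 (0.0825) or control replicate 3 (0.0703). The membrane anchors Sdhc and Sdhd changed by -0.54 (SE 0.09) and -0.64 (SE 0.13), with limma adjusted p = 0.00192 and 0.00348.

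Complex III, the cytochrome bc1 complex, had 6 of 8 members lower, with a median change of -0.88. Uqcr11, a small accessory subunit (chromosome 10, 80402997 to 80406830, minus strand), was at 215, 221 and 188 CPM in control and 75.4, 59.5 and 78.1 CPM in knockout. All knockout libraries were below all controls, and the change was -1.54 (SE 0.12, limma adjusted p = 7.01e-05). Uqcrfs1, the Rieske iron-sulfur protein, was at 384, 398 and 405 CPM in control and 199, 216 and 268 CPM in knockout (change -0.80, SE 0.12, limma adjusted p = 0.000864). Uqcrb, a ubiquinone-binding subunit, was at 315, 348 and 439 CPM in control and 307, 412 and 479 CPM in knockout. Its groups overlap and its change was 0.11 (SE 0.17, limma adjusted p = 0.639).

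Complex IV, cytochrome c oxidase, had 11 of 12 listed members lower, with a median change of -0.69. Cox7c, a small membrane subunit (chromosome 13, 86044816 to 86046904, minus strand), was at 81.2, 92.1 and 86.3 CPM in control and 28.4, 22.4 and 28.4 CPM in knockout. This was the largest fall of all members, with a change of -1.68 (SE 0.12, limma adjusted p = 4.42e-05). Cox4i1, which with Cox4i2 encodes the regulatory subunit 4, was at 796, 962 and 892 CPM in control and 312, 327 and 454 CPM in knockout (change -1.29, SE 0.15, limma adjusted p = 0.000283). Cox4i2 was not listed, nor was the paralog Cox8b of Cox8a. Cox8a was at 538, 555 and 516 CPM in control and 418, 392 and 399 CPM in knockout (change -0.41, SE 0.09, limma adjusted p = 0.00593). Cox6b1, the subunit that faces cytochrome c, was at 507, 555 and 578 CPM in control and 422, 501 and 578 CPM in knockout, overlapping groups (limma adjusted p = 0.407). For subunit 7a, both forms fell: Cox7a1, known from heart and muscle, was at 23.4, 28.9 and 30.2 CPM in control and 10.3, 9.81 and 14.2 CPM in knockout (change -1.20, SE 0.16, limma adjusted p = 0.000604). The widely expressed Cox7a2 was at 330, 376 and 420 CPM in control and 185, 195 and 255 CPM in knockout (change -0.83, SE 0.14, limma adjusted p = 0.00161). Cox7a1 made up 11.4% ± 0.441 (SD, n = 3) of their summed level per kb in control and 8.69% ± 0.464 in knockout epithelium. Cox6a1 and Cox7a2l, the latter a factor for respiratory supercomplexes, changed by -0.50 and -0.65.

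Complex V had 15 of 17 members lower, with a median change of -0.60. Atp5e, the epsilon subunit of the rotor (chromosome 2, 174461072 to 174464105, minus strand), was at 196, 227 and 236 CPM in control and 56.2, 71.2 and 112 CPM in knockout. Knockout replicate 3 was the highest of its group and still below all controls, and the change was -1.51 (SE 0.21, limma adjusted p = 0.000640). Atp5b, the catalytic beta subunit, was at 2550, 3026 and 2840 CPM in control and 1853, 1761 and 1926 CPM in knockout (change -0.60, SE 0.12, limma adjusted p = 0.00318). Atp5g1, Atp5g2 and Atp5g3 encode the same mature c subunit of the membrane ring. Atp5g3 was at 800, 886 and 866 CPM in control and 449, 410 and 500 CPM in knockout (change -0.91, SE 0.11, limma adjusted p = 0.000329), and Atp5g1 and Atp5g2 changed by -0.64 and -0.46. The Atp5g2 call was lost without control replicate 2 (adjusted p = 0.0515). The share of Atp5g3 in the 3 genes' summed level per kb was 62.4% ± 0.847 in control and 55.9% ± 1.54 in knockout, and that of Atp5g2 was 24.4% ± 1.11 and 29.8% ± 0.581 (SD, n = 3). These shares depend on the annotated exon lengths, 4912 bp for Atp5g1, 1675 bp for Atp5g2 and 2181 bp for Atp5g3. In CPM, Atp5g1 was above Atp5g2 in control, with means of 405 and 256. Atp5f1, the b subunit of the stalk (change -0.32, limma adjusted p = 0.0848), and Atp5s (0.08, adjusted p = 0.681) did not pass.

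Marker genes of differentiated cells moved with this fall. The 6 absorptive markers summed to 11375 to 13248 CPM in control and 4651 to 9619 CPM in knockout epithelium, with 4 of 6 lower and 0 at 0. Knockout replicate 3 had the highest absorptive sum, 9619 CPM, and the highest subunit sum of its group, but the lowest goblet sum, 7180 CPM. The 6 goblet markers summed to 12475 to 13322 CPM in control and 7180 to 10118 CPM in knockout, with 5 of 6 lower. The 6 general epithelial markers summed to 13052 to 14107 and 9621 to 12309 CPM. The 4 listed lymphocyte genes of 6 summed to 30.7 to 47.3 and 52.5 to 55.0 CPM. Their part in the fall of the subunit genes was not tested.

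Other mitochondrial genes were counted from lists of related pathways. Of 77 mitochondrial ribosomal protein genes 43 fell and 1 rose (median change -0.39), of 41 assembly factors 16 fell and 0 rose (median -0.24), of 13 tricarboxylic acid cycle genes 6 fell and 0 rose (median -0.27), and of 10 genes for cytochrome c and coenzyme Q synthesis 7 fell and 0 rose (median -0.46). Each of these medians was closer to 0 than the -0.75 of the subunit genes. Mdh2, the mitochondrial malate dehydrogenase, was at 562, 621 and 574 CPM in control and 411, 355 and 363 CPM in knockout (change -0.64, SE 0.10, limma adjusted p = 0.00117). Cytochrome c itself, Cycs, was at 725, 687 and 787 CPM in control and 579, 812 and 864 CPM in knockout, overlapping groups (change 0.02, limma adjusted p = 0.940). Among 14 regulators of mitochondrial genes 1 fell and 2 rose, beside 19.9% and 19.8% of all tested genes. Esrra, a nuclear receptor that activates respiratory genes, was at 165, 182 and 150 CPM in control and 100.0, 78.5 and 83.4 CPM in knockout (change -0.92, SE 0.12, limma adjusted p = 0.000500). Hif1a, the oxygen-sensitive factor, was at 104, 94.2 and 103 CPM in control and 309, 368 and 394 CPM in knockout (change 1.82, SE 0.11, limma adjusted p = 1.56e-05). Gabpa, the DNA-binding part of GABP, rose by 0.42, and Nrf1 (-0.16, adjusted p = 0.256), Ppargc1a (0.28, adjusted p = 0.331) and Tfam (-0.19, adjusted p = 0.280) did not pass. Of 16 glycolysis genes 2 rose and 4 fell, beside 19.8% and 19.9% of all tested genes. Pfkl, the liver form of phosphofructokinase, was at 308, 217 and 188 CPM in control and 111, 85.4 and 125 CPM in knockout (change -1.13, SE 0.19, limma adjusted p = 0.00157), and Ldha, Pfkm and Aldoa changed by -0.49, -0.46 and -0.33. Hk2, a hexokinase, was at 187, 158 and 148 CPM in control and 335, 342 and 220 CPM in knockout (change 0.84, limma adjusted p = 0.00378), and the lactate exporter Slc16a3 changed by 1.02.

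In the cells labelled colonocytes the subunit genes changed little with any treatment. With TNF the summed level of 77 members was 7302, 7434 and 6801 CPM in untreated and 7533, 7633 and 6912 CPM in treated libraries. Replicate 3 was the lowest in each group, the groups overlapped, and the treated mean was 103% of the reference. In limma with Benjamini-Hochberg adjustment 0 of 77 members were called, beside 1.67% of all tested genes lower and 4.61% higher. An unadjusted p under 0.05 was found for 1 member, beside 2162 of all 11586 tested genes. By edgeR's quasi-likelihood test and by DESeq2 0 members were called as well. Changes ran from -0.15 to 0.23. Uqcrfs1 was at 36.5, 35.8 and 33.7 CPM untreated and 42, 42.1 and 37.4 CPM with TNF, groups that do not overlap (change 0.19, SE 0.07, limma adjusted p = 0.138). Same-numbered replicates deviated together in this comparison, and with the replicate as a block Uqcrfs1 was the 1 member that passed (limma adjusted p = 0.00557), beside 8.80% of all tested genes lower and 11.5% higher in that fit. Without both libraries of replicate 3, 7 of 77 members rose and 0 fell, beside 11.4% of all tested genes that rose and 8.65% that fell in that fit. The 7, with changes of 0.15 to 0.21, were Cox7c, Ndufa4, Ndufb4, Ndufs3, Sdhc, Uqcrfs1 and Uqcrh.

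With TGFB1 and BMP2 the 78 listed members summed to 7186, 7310 and 6666 CPM in untreated and 7313, 7371 and 6935 CPM in treated libraries, which overlapped, with a mean of 102% of the reference. In limma 0 of 78 members were called, beside 14.3% of all tested genes lower and 15.9% higher (edgeR and DESeq2 also called 0). An unadjusted p under 0.05 was found for 3 members, beside 4711 of all 11620 tested genes. Changes ran from -0.18 to 0.17. Without both libraries of replicate 3, 4 of 78 members passed, 2 higher and 2 lower, beside 39.0% of all tested genes that passed in either direction in that fit. Among them were Cox7c (0.16), Uqcrh (0.14) and Ndufs7 (-0.26).

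When TGFB1 and BMP2 were added to TNF, 1 of 78 members rose and 0 fell, beside 16.4% of all tested genes that rose and 15.6% that fell. It was Atp5o, the stalk subunit that confers oligomycin sensitivity, at 157, 159 and 147 CPM with TNF and 168, 174 and 166 CPM with all 3 factors. The groups did not overlap, and the change was 0.13 (SE 0.05, limma adjusted p = 0.0473). That call was lost when the table was scaled by total reads (0.05, adjusted p = 0.412) and in 5 of the 6 fits that left out 1 library. Deviations of same-numbered replicates correlated at 0.16 to 0.41 here and those of other pairs at up to 0.22, so the pairing is uncertain. With the replicate as a block 8 of 78 members rose and 1 fell, beside 21.9% and 21.4% of all tested genes in that fit. Ndufb3 (0.20), Ndufa1 (0.16), Atp5l (0.14), Cox5a (0.14), Atp5o (0.13), Atp5g2, Cox4i1 and Uqcrh (0.11 each) rose. Without both libraries of replicate 3, 3 of 78 members rose and 0 fell, beside 18.4% and 17.5% of all tested genes in that fit, and the 3 were Atp5j2 (0.17), Cox4i1 (0.15) and Ndufb3 (0.22). The tissue-restricted forms Cox6a2 (0.722 to 1.67 CPM), Cox6b2 (0.562 to 1.74 CPM) and Ndufa4l2 (2.42 to 3.66 CPM) were at the lowest levels of the members here, and none of them passed.

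In colonoids TNF alone gave no called member. The 77 members summed to 16194, 18166 and 16198 CPM with vehicle and 15248, 17690 and 15378 CPM with TNF in lines 42, 43 and 46, a mean of 95.6% with overlapping groups. Line 43 was the highest in both groups, and within each line the sum was lower with TNF, at 94.2%, 97.4% and 94.9% of its own vehicle library. The sum of each of the 5 complexes was also lower in all 3 lines, at 91.3% to 99.1% of vehicle. In limma 0 of 77 members were called, beside 0.0171% of all tested genes lower and 0.120% higher. An unadjusted p under 0.05 was found for 0 members, beside 514 of all 11688 tested genes. The median change was -0.08 against -0.00 for all genes, and 75 of 77 changes were below 0. With the line as a block, as same-numbered libraries come from 1 line, 0 members were called, beside 2.39% of all tested genes lower and 3.76% higher in that fit. By edgeR or DESeq2 0 members were called.

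Genes of all 5 complexes fell in colonoids given TGFB1 with BMP2. The 77 members summed to 14622, 16687 and 14775 CPM with vehicle and 10425, 10623 and 11312 CPM with TGFB1 and BMP2. All 3 treated lines were below all 3 vehicle lines, and the treated mean was 70.2% of the vehicle mean. By complex it was 68.5% for I, 63.9% for II, 69.5% for III, 76.6% for IV and 69.8% for V, with no overlap in any of them. In limma 65 of 77 members fell and 1 rose, beside 28.7% of all tested genes that fell and 28.0% that rose. The groups did not overlap in 70 members that were lower and 1 that was higher (34.5% and 33.5% of all tested genes), and the median change was -0.51 against -0.02 for all genes. By complex 30 of 36 members fell in I, 4 of 4 in II, 8 of 8 in III, 9 of 12 in IV and 14 of 17 in V. Scaled by total reads the median of all genes shifted to -0.28 and that of the members to -0.79, with 74 members lower and 0 higher, while 1997 of all genes were higher and 5026 lower in place of 3262 and 3334.

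Ndufa5, an accessory subunit of the peripheral arm of complex I (chromosome 6, 24518666 to 24528013, minus strand), was at 46.1, 61.0 and 41.5 CPM with vehicle and 17.3, 17.9 and 24.2 CPM with TGFB1 and BMP2. This was the largest fall of all members, with a change of -1.28 (SE 0.19, limma adjusted p = 0.00317), whereas in Smad4 knockout colon the gene changed by -0.30 and did not pass (limma adjusted p = 0.0565). Ndufv2 was at 128, 159 and 124 CPM with vehicle and 68.7, 71.6 and 77.0 CPM treated (change -0.90, SE 0.12, limma adjusted p = 0.00230), and Ndufs1 and Ndufv1 changed by -0.64 and -0.74. Ndufs4, an accessory subunit needed for a stable complex, was at 80.2, 91.2 and 72.9 CPM with vehicle and 82.0, 78.3 and 68.8 CPM treated, overlapping groups (limma adjusted p = 0.529). Ndufa4l2, the paralog of Ndufa4 known as a Hif1a target, was at 1.05, 3.87 and 5.50 CPM with vehicle and 1.69, 5.46 and 7.19 CPM treated and did not pass (limma adjusted p = 0.581). Ndufa4 changed by -0.66 (SE 0.17, limma adjusted p = 0.0158).

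In complex II, Sdhb was at 153, 177 and 151 CPM with vehicle and 81.1, 81.8 and 92.5 CPM treated, groups well apart (change -0.90, SE 0.10, limma adjusted p = 0.00168). Sdha was at 431, 481 and 426 CPM with vehicle and 259, 289 and 296 CPM treated (change -0.66, SE 0.10, limma adjusted p = 0.00307), and Sdhc and Sdhd changed by -0.49 and -0.58. In complex III the largest fall was that of Uqcr10, a small subunit (chromosome 11, 4701973 to 4704342, minus strand), at 138, 162 and 133 CPM with vehicle and 63.9, 61.0 and 76.8 CPM treated. Its groups did not overlap (change -1.09, SE 0.12, limma adjusted p = 0.00172). Uqcr11 changed by -0.73, and Uqcrb and Uqcrc2, which did not pass in knockout colon, changed by -0.41 and -0.30 here (limma adjusted p = 0.0146 and 0.0306).

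In complex IV, Cox8a (chromosome 19, 7215153 to 7217616, minus strand) was at 287, 301 and 295 CPM with vehicle and 176, 168 and 199 CPM treated, groups that do not overlap (change -0.70, SE 0.09, limma adjusted p = 0.00229). Cox4i1 and Cox7c changed by -0.35 each, where knockout colon had -1.29 and -1.68. Cox5a, at 223, 277 and 248 CPM with vehicle and 229, 237 and 223 CPM treated, did not pass (limma adjusted p = 0.380), nor did Cox6b1 (change -0.22, limma adjusted p = 0.0630). Cox7a1 (chromosome 7, 30184144 to 30186078, plus strand) was at 9.95, 14.4 and 8.44 CPM with vehicle and 23.9, 50.1 and 14.5 CPM with TGFB1 and BMP2 in lines 42, 43 and 46. Every treated line was above every vehicle line, line 43 was the highest in both groups, and the change was 1.21 (SE 0.43, limma adjusted p = 0.0488). The call was lost in 5 of 6 fits that left out 1 library and with total reads as scaling (0.95, limma adjusted p = 0.0821), and the change without treated line 43 was 0.75 (adjusted p = 0.0820). With the line as a block Cox7a1 kept its call (SE 0.21, limma adjusted p = 0.00985). Cox7a2 was at 170, 192 and 156 CPM with vehicle and 112, 108 and 116 CPM treated (change -0.61, SE 0.10, limma adjusted p = 0.00388). The share of Cox7a1 in the summed level of both per kb was 9.38%, 11.7% and 8.71% with vehicle and 27.4%, 45.0% and 18% treated.

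In complex V, Atp5g1 (chromosome 11, 96068852 to 96075670, minus strand) was at 153, 187 and 159 CPM with vehicle and 82.3, 92.1 and 98.1 CPM treated, and Atp5g2 was at 213, 231 and 234 CPM with vehicle and 112, 111 and 153 CPM treated. Both were lower in every treated line, with changes of -0.86 each (SE 0.11 and 0.14, limma adjusted p = 0.00231 and 0.00412). Atp5g3 changed by -0.65, Atp5b by -0.51 and Atp5e by -0.35, the last against -1.51 in knockout colon. Atp5o was at 246, 285 and 252 CPM with vehicle and 148, 151 and 170 CPM treated (change -0.73, SE 0.10, limma adjusted p = 0.00244).

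**Figure D2:**
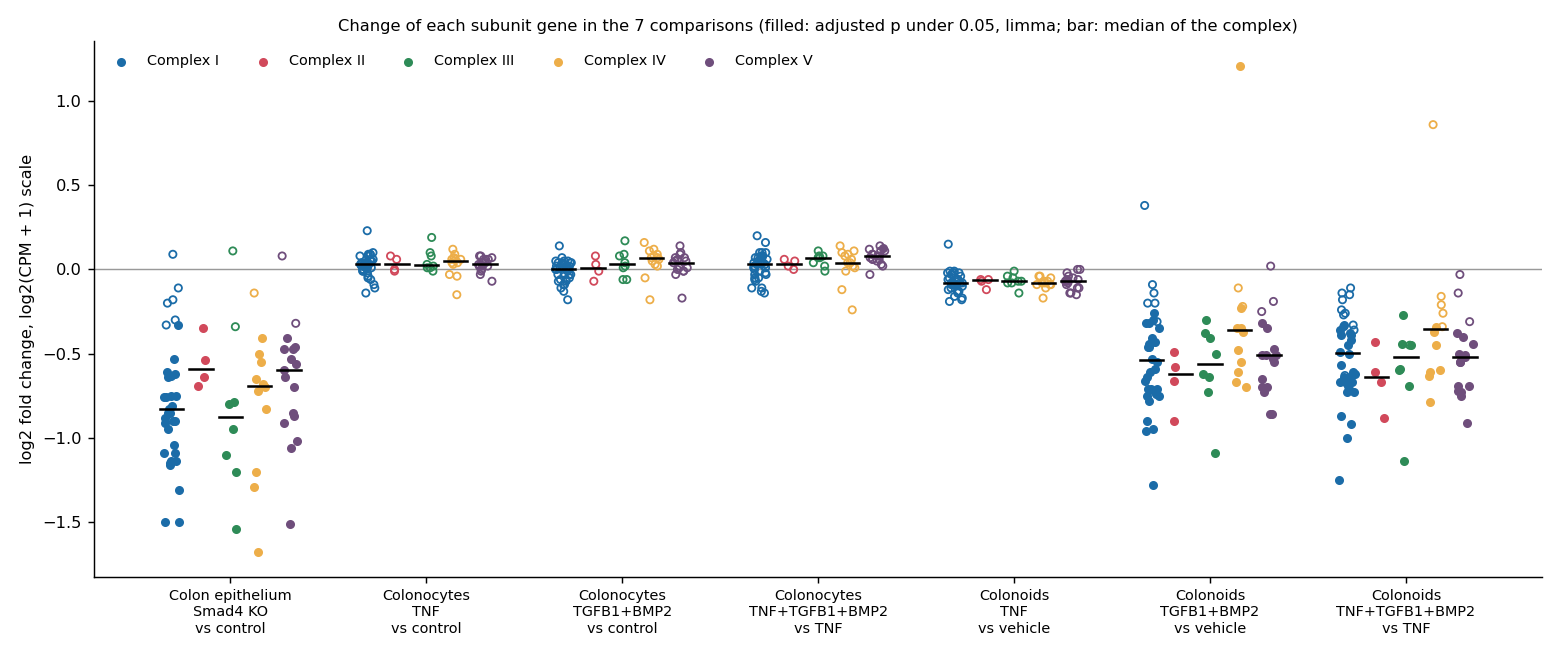
Log2 change of each member in each of the 7 comparisons, grouped by complex, with each point 1 member. The points lie near 0 in the cells labelled colonocytes and with TNF alone, and mostly below 0 in knockout colon (median -0.75) and in colonoids with TGFB1 and BMP2 (medians -0.51 and -0.50).

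Adding TGFB1 and BMP2 to TNF gave like values in the same colonoid lines, from other libraries. The members summed to 13895, 16146 and 14000 CPM with TNF and 9500, 9964 and 11421 CPM with all 3 factors, with no overlap and a mean of 70.1% of TNF alone. In limma 57 of 77 members fell and 0 rose, beside 27.7% of all tested genes that fell and 26.4% that rose. The groups did not overlap in 62 members that were lower and 0 that were higher (34.1% and 32.2% of all tested genes), and the median change was -0.50 against -0.03. By complex 25 of 36 members fell in I, 4 of 4 in II, 7 of 8 in III, 7 of 12 in IV and 14 of 17 in V. Ndufa5 was at 45.5, 52.8 and 40.5 CPM with TNF and 16.3, 17.6 and 23.2 CPM with all 3 (change -1.25, SE 0.17, limma adjusted p = 0.00248). Sdhb changed by -0.88, Uqcr10 by -1.14, Cox8a by -0.79 and Atp5g1 by -0.91. Cox7a1 was at 7.96, 12.9 and 8.04 CPM with TNF and 15.2, 33.3 and 11.1 CPM with all 3, overlapping across lines but higher in each line, and did not pass (change 0.86, SE 0.39, limma adjusted p = 0.103). With the line as a block it passed (SE 0.20, limma adjusted p = 0.0205), as the 1 member that rose in that fit. All 57 members that fell here were among the 65 that fell without TNF (87.7% of those 65). The count of 57 was 38 without the TNF library of line 43 or without the 3-factor library of line 42. The share of all genes called in those fits is not given. Scaled by total reads 73 members fell with a median of -0.76, against -0.27 for all genes, of which 1912 were higher and 4890 lower in place of 3061 and 3217.

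**Figure D3:**
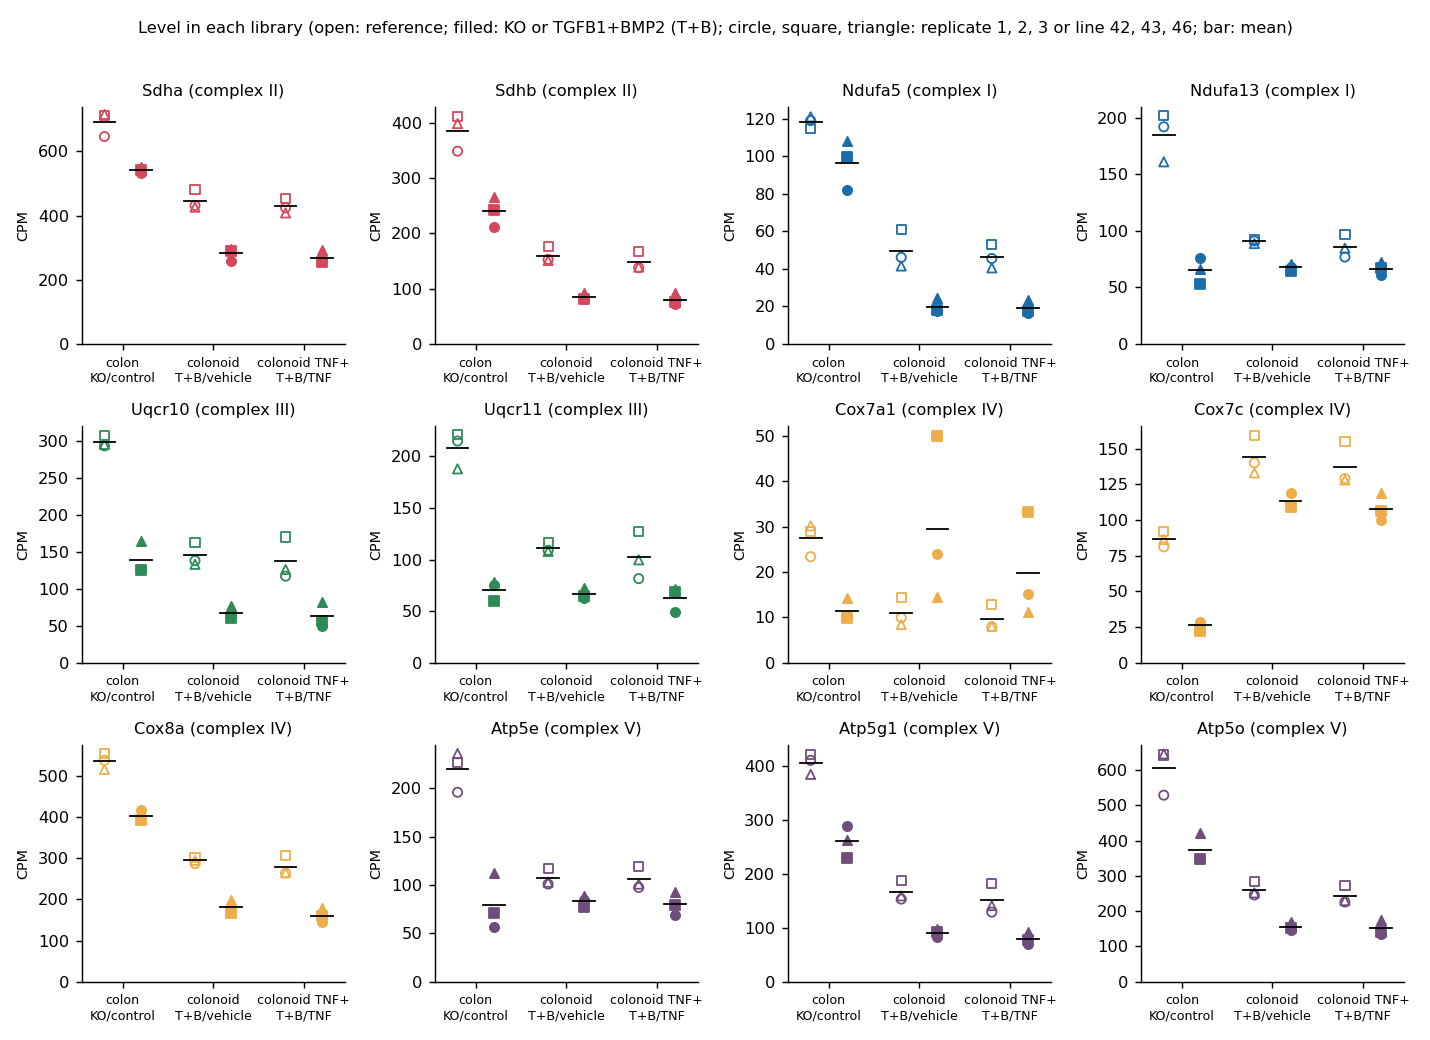
Level in CPM of 12 named members in each library of the 3 comparisons in which members fell, with open symbols for the reference group, filled symbols for knockout or TGFB1 with BMP2, marker shape for the replicate or line, and bars for group means. In 11 of the 12 panels the filled symbols lie below the open ones, and in the Cox7a1 panel the colonoid treated libraries lie higher, with line 43 at 50.1 and 33.3 CPM.

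Whether TNF altered the response to TGFB1 and BMP2 was tested as an interaction over the 12 libraries of each system. In limma 0 members passed in the colonoids, where 0% of 11413 genes passed, and 0 members passed in the cells labelled colonocytes, where 0.00875% of 11434 genes passed. At an unadjusted p under 0.05 there were 0 members in each system, beside 84 of all genes in the colonoids and 356 in the cells labelled colonocytes. By edgeR's quasi-likelihood test 0 genes passed in either, and by DESeq2 13 genes passed in the colonocytes and 1 in the colonoids.

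Markers moved with the colonoid response as well. With TGFB1 and BMP2 the 6 goblet markers summed to 658 to 1102 CPM with vehicle and 221 to 276 CPM treated, with 6 of 6 lower and 0 at 0. The 6 epithelial markers summed to 8655 to 10542 and 24500 to 31882 CPM, with 6 of 6 higher. The 6 absorptive markers summed to 1467 to 2348 and 1342 to 3832 CPM, which overlap, with 2 lower and 1 higher (median change -0.52). With all 3 factors against TNF the goblet sums were 521 to 908 and 153 to 178 CPM and the epithelial sums 9325 to 11470 and 25129 to 30573 CPM. The absorptive sums were 1248 to 1993 and 780 to 2011 CPM, which overlap, with 3 of 6 genes lower and 1 higher (median change -1.13). No lymphocyte marker was listed in colonoids. Their part in the fall of the subunit genes was not tested.

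The related mitochondrial lists fell in colonoids with TGFB1 and BMP2. Of 77 mitochondrial ribosomal protein genes 50 fell and 1 rose (median -0.41), and of 41 assembly factors 25 fell and 1 rose (median -0.43). Of 13 tricarboxylic acid cycle genes 8 fell and 0 rose (median -0.45). Of 10 electron carrier genes 8 fell and 1 rose (median -0.63). The median of the electron carriers was below the -0.51 of the subunit genes, and the other medians were above -0.51. Idh3a, the catalytic subunit of the NAD-linked isocitrate dehydrogenase, was at 217, 263 and 227 CPM with vehicle and 78.8, 82.9 and 141 CPM treated (change -1.26, SE 0.23, limma adjusted p = 0.00532). Cycs fell to 159, 173 and 174 CPM from 246, 305 and 230 CPM (change -0.62, limma adjusted p = 0.00687). Of 14 regulators 7 fell and 4 rose, beside 28.7% and 28.0% of all tested genes. Ppargc1b, a coactivator of respiratory genes, was at 19.2, 16.1 and 18.5 CPM with vehicle and 2.63, 3.56 and 5.72 CPM treated (change -1.97, SE 0.24, limma adjusted p = 0.00200). Its relative Ppargc1a was at 19.0, 20.1 and 19.2 CPM with vehicle and 4.86, 6.53 and 12.3 CPM treated (change -1.29, SE 0.29, limma adjusted p = 0.0105). Tfam, which packages and transcribes mitochondrial DNA, was at 66.5, 76.8 and 61.4 CPM with vehicle and 29.2, 29.8 and 35.7 CPM treated (change -1.09, SE 0.13, limma adjusted p = 0.00184). In each of these 3 genes line 46 was the least lowered. Esrra, at 81.2, 82.2 and 89.4 CPM with vehicle and 81.2, 83.0 and 85.7 CPM treated, did not pass (limma adjusted p = 0.878). Hif1a was at 91.7, 109 and 94.5 CPM with vehicle and 277, 334 and 172 CPM treated (change 1.35, SE 0.24, limma adjusted p = 0.00512). Of 16 glycolysis genes 4 rose and 2 fell, beside 28.0% and 28.7% of all tested genes. Those that rose were Slc2a1, the glucose transporter, at 243, 197 and 289 CPM with vehicle and 652, 672 and 457 CPM treated (change 1.28, limma adjusted p = 0.00357), Slc16a3 (1.31), Hk2 (0.77) and Pkm (0.51). Those that fell were Pfkm, the muscle form of phosphofructokinase (-0.99), and Pdk1, a kinase that inhibits pyruvate dehydrogenase (-0.41).

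Knockout colon and TGFB1 with BMP2 in colonoids share no library, so their values for the members can be set side by side. Of the 76 members in both, 65 fell in each and 56 fell in both (86.2% of each), while 2 fell in neither, Atp5s and Cox6b1. Of all tested genes 19.9% fell in colon and 28.7% in colonoids, and the share that fell in both was not counted. With 65 of 76 members lower in each, most must be lower in both. The 56 is thus no measure of likeness between the systems. The sizes of the changes did not follow each other across the 76 members (Pearson r = -0.15, Spearman rho = -0.13, a description over genes that share libraries). Atp5f1, Ndufa10, Ndufa12, Ndufa4, Ndufa5, Ndufs1, Ndufv2, Uqcrb and Uqcrc2 fell in colonoids and did not pass in colon. Atp5d, Atp5j, Cox5a, Cox7a1, Ndufa1, Ndufa11, Ndufa6, Ndufb3 and Ndufs4 fell in colon and did not fall in colonoids. The difference between the systems was not tested for these genes.

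**Figure D4:**
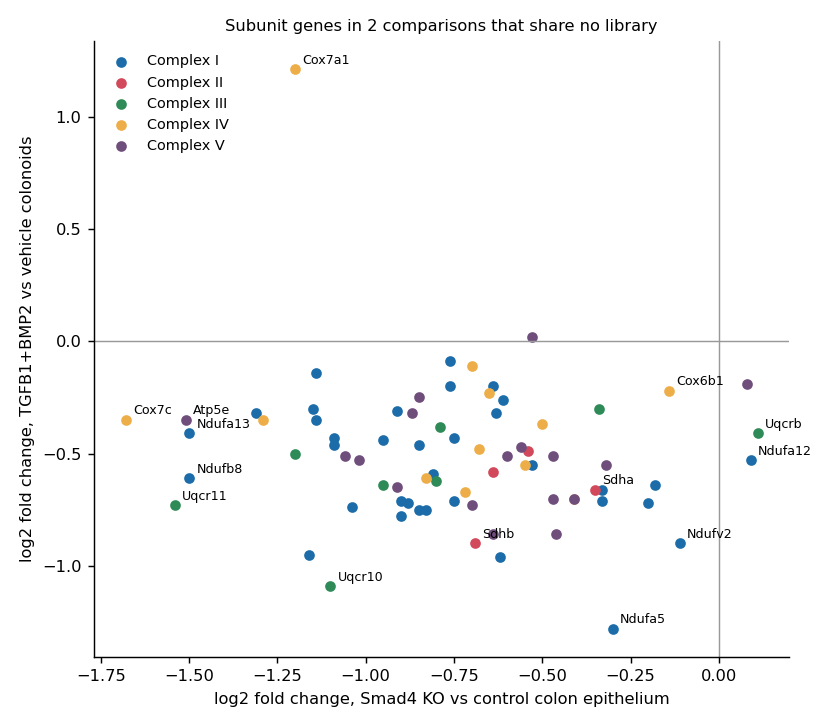
Log2 change of each of 76 members in Smad4 knockout colon epithelium (x axis) against its change with TGFB1 and BMP2 in colonoids (y axis), coloured by complex. Most points lie below 0 on both axes with no common slope (Pearson r = -0.15), and Cox7a1 is lower in colon and higher in colonoids.

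Subunit genes are short, and short genes as a class were also lower in these comparisons. The median exon length of the members was 1587 bp, against 4393 bp for listed genes with a length. In knockout colon other genes of up to 1200 bp had a median change of -0.41 and members of that length -0.88. Between 1200 and 2000 bp these medians were -0.28 and -0.79, and above 2000 bp they were 0.05 and -0.64. With TGFB1 and BMP2 in colonoids the other genes had medians of -0.24, -0.13 and 0.01 in the 3 length classes, and the members -0.44, -0.55 and -0.51. In each class the members' median was below that of other genes. Across genes in knockout colon, the Spearman correlation of length with change was 0.40 for other genes and 0.18 for members, given as a description.

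**Figure D5:**
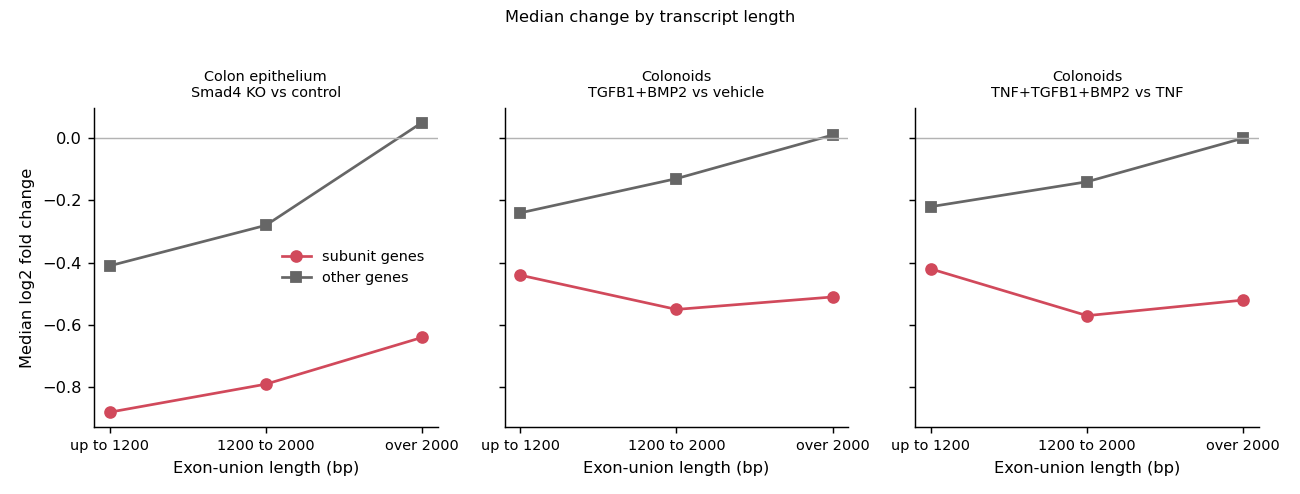
Median log2 change of members (circles) and other genes (squares) in 3 classes of exon length, for the 3 comparisons in which members fell. The members' line lies below that of other genes in each class, and the other genes' medians rise with length.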

How the data were processed

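The members, gene lists and tests were chosen with earlier results of these data known. Total RNA was sequenced from TruSeq Stranded mRNA libraries, per the labels. The mm10 build, with TopHat2 2.1.0, HTSeq 0.5.4p5, edgeR 3.4.2, SAMtools 1.3.1, bcl2fastq 2.16 and CASAVA, is named in the submitters' processing notes. The sources used here do not give how each tool was used or whether counting took strand into account. The 28 members that overlap a gene on the other strand may share its reads. The authors deposited a signal per gene and library, CPM scaled to an effective library size, in 7 tables of 6 libraries. Whole reads were recovered from these values (100.0% of values in each table within 0.05 of a whole read), and edgeR's quasi-likelihood test on them called 4578 genes in colon, 744, 3579 and 3738 in the 3 colonocyte tables and 16, 6379 and 6009 in the 3 colonoid tables. The log2 fold changes and p-values (FDR) that the authors deposited were used once, as a count: in the authors' deposited table members with an FDR under 0.05 numbered 64 lower in colon, 49 lower and 1 higher in colonoids with TGFB1 and BMP2, 47 lower and 1 higher with all 3 factors, and 0 elsewhere. The share of all genes at that FDR is not given here.

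Within each table the CPM were tested as log2(CPM + 1) for genes with a mean of at least 1 CPM, by limma 3.58.1 (trend, two-sided, R 4.3.3) with Benjamini-Hochberg adjustment over all genes and a threshold of 0.05. Interactions used the recovered reads of the 12 libraries of a system with TMM scaling. Alternatives were a pseudocount of 0.25, no filter on low values, total listed reads as scaling, the replicate or line as a block, each library left out, edgeR 4.0.16 and DESeq2 1.42.0. Leaving out both libraries of colonocyte replicate 3, or both libraries of line 46, was chosen after seeing the data. The fit was tested on simulated data. Each condition had 3 biological replicates, per the series' design text, and p-values measure the spread between them. The lowest and highest correlations of same-numbered replicates' deviations were -0.01 and 0.12 in colon, 0.27 and 0.52 for TNF, 0.05 and 0.25 for TGFB1 with BMP2 and 0.16 and 0.41 for all 3 factors in colonocytes, and 0.74 and 0.89, 0.31 and 0.59, and 0.28 and 0.59 in colonoids, where the number is the line. Replicates count as paired where every correlation was over 0.1. The highest correlations of differently numbered replicates were 0.45 in colon, 0.22, 0.23 and 0.22 in colonocytes, and -0.15, -0.09 and -0.11 in colonoids. For all 3 factors in colonocytes the 0.22 exceeds the lowest same-numbered value, 0.16. The cutoff thus does not establish pairing there, and the colonocyte block rests on these values and the replicate numbers. Named members were, by complex and comparison, those with the largest rise and fall past the threshold, those past it in the same direction in 5 or more comparisons or in opposite directions in 2, all members of fixed paralog sets, and the 4 subunits of complex II. Other members named were chosen after their values were seen. Some single-gene values are not reported here. Gene positions and exon lengths came from GENCODE M21 on GRCm38, which matched 77 of 79 members by symbol, and start-site sequences from RefSeq on GRCm38.p6.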

Additional observations from a re-analysis of the deposited data

Results flagged for a closer look

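The same factors were given to the cells labelled colonocytes and to colonoids, and in these members every treated library lay above every reference library in the former and below in the latter. They are listed because of this pattern. In the cells labelled colonocytes 6 of 78 members were higher without overlap and 3 lower with TGFB1 and BMP2, and 7 and 1 with all 3 factors. The share of all genes without overlap was not counted there. Limma called 15.9% and 16.4% of all tested genes higher in these comparisons, in that order, which is another measure. Whether these counts of members differ from the share of all genes without overlap thus cannot be said. The difference between the systems was not tested, and the doses of the former are not in the labels. For TGFB1 with BMP2 the log2 changes in the cells labelled colonocytes and in colonoids were 0.07 and -0.51 for Atp5a1, 0.14 and -0.32 for Atp5l, and 0.09 and -0.73 for Atp5o. They were 0.08 and -0.22 for Cox6b1, 0.08 and -0.49 for Sdhc, and 0.17 and -0.62 for Uqcrfs1. For TGFB1 with BMP2 added to TNF they were 0.11 and -0.75 for Atp5g2, 0.12 and -0.51 for Atp5k, and 0.14 and -0.38 for Atp5l. They were 0.13 and -0.69 for Atp5o, 0.07 and -1.0 for Ndufb5, and 0.06 and -0.67 for Sdha. The rises in the cells labelled colonocytes were small, and of these 12 that of Atp5o with all 3 factors passed the test there (limma adjusted p = 0.0473), a call lost in 5 of the 6 fits that left out 1 library and with total reads as scaling (adjusted p = 0.412). With the replicate as a block Atp5o (limma adjusted p = 0.00520), Atp5g2 (0.0207) and Atp5l (0.0209) passed with all 3 factors, and Uqcrfs1 (0.0462) passed with TGFB1 and BMP2, where the numbers do not pair the samples.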

How the results depend on the processing

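Of the calls on named members, 58 were refitted under the alternatives chosen at the outset, giving 696 values: 642 kept the call and direction, 54 kept the direction without the call, and 0 reversed. The 13 calls lost in some alternative were those of Atp5e, Cox7c, Ndufa13, Uqcr11 and Cox6a1 with all 3 factors, of Atp5e, Cox7c, Cox7a1, Cox7a2l and Ndufa4 with TGFB1 and BMP2 in colonoids, of Atp5g2 and Sdha in colon, and of Atp5o in colonocytes. With 1 library left out, members called ranged from 58 to 69 in colon, 51 to 67 in colonoids with TGFB1 and BMP2, 38 to 67 with all 3 factors, 0 to 2 in colonocytes with TGFB1 and BMP2, 0 to 4 with all 3 factors, and were 0 for TNF in both. The share of all genes called in these fits is not given, so the ranges describe the members alone. The value of 1 without 3-factor colonocyte replicate 1 was a fall of another member, Ndufv3 (-0.25), while Atp5o stayed higher without its call (0.14, limma adjusted p = 0.0944), and the 4 were without 3-factor replicate 3.

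With the replicate block the paired colonocyte comparisons gave 1 member for TNF and 9 for all 3 factors, and the unpaired one gave 2. The block gave 69 in colon, where numbers do not pair the samples, 64 lower and 1 higher in colonoids with TGFB1 and BMP2, and 62 lower and 1 higher with all 3 factors, and it changed no other count by over 1.5 times. Without both libraries of replicate 3, 7, 4 and 3 members passed in the 3 colonocyte comparisons, and without line 46 the colonoid counts were 0, 62 and 58. For the block in colon, in the unpaired colonocyte comparison and in colonoids with TGFB1 and BMP2, no share of all genes is given. Nor is it given for the fits without line 46.

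Scaled by total reads, 2 members (lower) passed with TGFB1 and BMP2 and 1 (lower, and not Atp5o) with all 3 factors in colonocytes, where the share of all genes is not given. Summed levels then moved to 96.3% of the reference for all members and 93.5%, 94.9%, 96.5%, 98.4% and 97.1% for complexes I to V with TGFB1 and BMP2 in colonocytes. With all 3 factors they moved to 98.2% for all and 96.3%, 97.5%, 98.7%, 99.3% and 98.9% for I to V. Each of these had been above the reference, except complex I with TGFB1 and BMP2, which had been at 99.3%. With TNF in colonocytes complexes I and II moved from 102% and 101% to 99.6% and 99.1%. In colonoids they moved to 58.0% for all and 56.6%, 52.7%, 57.4%, 63.2% and 57.7% for I to V with TGFB1 and BMP2, and to 58.8% for all and 58.4%, 53.6%, 58.9%, 63.2% and 57.9% with all 3 factors. The cause was not tested. The direction of the fall was kept in colon and colonoids under every alternative run. Precision rests on 3 libraries per group.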
